A study of Mus musculus with 9 samples.

Results

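The third replicate of the RiboSeq experiment was 3 of 9 libraries, 1 per condition (GFP-TTP, GFP-TTP-AA and GFP alone), and it was set against the 6 libraries of the first and second replicates. Libraries were assigned by the replicate number in their labels. RiboSeq counts the mRNA fragments that translating ribosomes shield from nuclease. Of 16921 genes in the table, the 10102 with a mean value of at least 10 over the libraries were described.

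All lines came from bone marrow-derived macrophages (BMDMs) of TTP-deficient mice that had been immortalized with human Myc and mutant Ras oncogenes and selected for the macrophage surface proteins CD11b and F4/80. TTP, encoded by Zfp36, binds AU-rich elements of mRNAs and promotes their decay, and TTP-AA is a mutant that cannot be phosphorylated at a pair of regulatory serines. A tet-inducible vector carried 1 of 3 inserts, which were GFP alone (labelled GFP/EV), GFP fused to TTP and GFP fused to TTP-AA. The macrophages of all 9 libraries received 1 µg/ml doxycycline for 6 h and 1 µg/ml LPS for 1 h, so no unstimulated library was part of the comparison. They model macrophages only as far as cells driven by oncogenes and a transduced vector do, and the growth history of the replicates is not described beyond the label "biological".

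The deposited values are fits of a model with a condition term and a library date term, and this sets what can be said. After scaling for library size, the difference of replicate 3 from replicate 1 was the same in GFP, GFP-TTP and GFP-TTP-AA for every gene, up to a largest deviation of 1.64e-14 on the log2 scale. The 3 libraries of a replicate therefore count as a single observation, there is no spread between them to test against, and every difference below is a description without a p-value. The model pulls differences of genes with few reads towards 0, and among the 6819 genes below the minimum the SD of the difference was 0.09. Differences are given as log2 of scaled fitted values, first replicate 3 minus replicate 1 and then replicate 3 minus replicate 2. Depth differed with the replicate number: the fitted values summed to 8999392 to 12804501 per library in replicate 1, 2570292 to 3945427 in replicate 2 and 5142543 to 8587231 in replicate 3. Replicate number, depth and library date cannot be told apart here.

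LPS acts through TLR4 in macrophages. Within minutes, MAP kinases switch on immediate-early genes, which encode transcription factors such as Fos, Jun and Egr1 and the phosphatases and inhibitors that end the kinase signal, and their mRNAs decay quickly. NF-kB and interferon regulatory factors then induce cytokines, chemokines, the NF-kB inhibitors themselves and, partly through secreted interferon beta, the interferon-stimulated antiviral genes. These groups differ in when they peak after LPS.

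Across the 10102 genes, replicate 3 differed from the mean of the other replicates with an SD of 0.28 and a median of 0.01, and the middle of the distribution ran from -0.15 to 0.18 (quartiles). The same SD was 0.26 for replicate 2 and 0.23 for replicate 1, so that replicate 3 stood apart somewhat more than the others. For comparison, the condition differences had SDs of 0.26 for GFP-TTP minus GFP, 0.27 for GFP-TTP-AA minus GFP and 0.35 for GFP-TTP-AA minus GFP-TTP. Replicate and condition terms were each shrunken by the model to their own degree, so these SDs describe the fits only. A gene was counted as higher or lower in replicate 3 when it lay at least 1.5-fold over, or under, both other replicates. By this count 140 genes were higher, which is 1.39% of those described, and 82 were lower, which is 0.812%. Replicate 2 had 108 genes over and 19 under both others (1.07% and 0.188%), and replicate 1 had 18 and 57 (0.178% and 0.564%). At 2-fold, 19 genes (0.188%) were higher in replicate 3 and 9 (0.0891%) were lower. The genes nearest the 1.5-fold boundary of 0.58 were Ifi203 at 0.59 inside and Pde4b outside on the higher side, and on the lower side Gm25492 at -0.59 inside and Ppp1r9b outside.

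**Figure D1:**
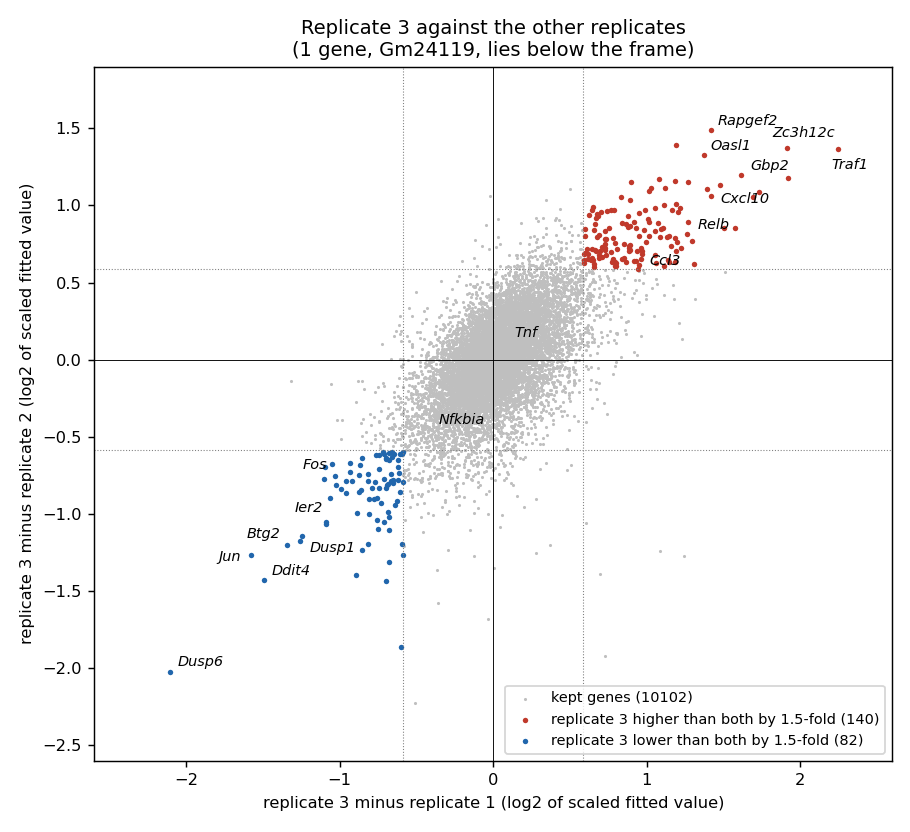
Each point is 1 of 10102 genes, placed by its log2 difference of replicate 3 from replicate 1 (x axis) and from replicate 2 (y axis), with dotted lines at 1.5-fold. The 140 genes over both other replicates are red and the 82 under both are blue, with Traf1, Zc3h12c and Gbp2 at the upper right and Dusp6, Jun and Ddit4 at the lower left.

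Genes of lists named for the LPS response stood at both ends of this distribution. These lists were chosen with earlier results of these data known. Without an unstimulated library, the response of their genes to LPS was not measured here. Of the 82 lower genes 11 (13.4%) belonged to the 2 lists of immediate-early genes, against 0.436% of all genes described. Of the 140 higher genes 24 (17.1%) belonged to the lists of NF-kB components, LPS-induced cytokines and interferon-stimulated genes, against 0.802%. No lower gene was in those last 3 lists, a count that depends on which genes were listed, and 1 higher gene, Dusp16, was in an immediate-early list. Of the called genes, 100 of the 140 higher and 65 of the 82 lower ones were in none of the 26 pathway lists.

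Immediate-early genes and feedback inhibitors of the MAP kinases were among the genes with the most negative differences of replicate 3, but as a minority of each list. The list of 24 immediate-early and MAP kinase feedback genes, called feedback genes below, also held immediate-early genes such as Ier2 that are not MAP kinase inhibitors. Of these 24 genes 8 (33.3%, against 0.812% of all genes) were lower than both other replicates. In the same list 1 was higher (4.17%, against 1.39%) and 15 were neither, with a median of -0.15 against 0.01 for all genes. Of 20 immediate-early transcription factors 3 (15%, against 0.812% of all genes) were lower and none was higher. Their median was -0.06, a value that turned to 0.046 against replicate 1 alone.

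Dusp6, a phosphatase that inactivates ERK, lay lowest of all protein-coding genes in both comparisons. Its scaled values in replicates 1, 2 and 3 were 949.6, 898 and 221 in GFP-only macrophages, 678, 641 and 158 in GFP-TTP and 359.6, 340.1 and 83.7 in GFP-TTP-AA. Every replicate 3 value was below every value of the other replicates, and the differences were -2.10 and -2.02. For this and every gene below, the order of the replicates repeats in each condition because the values are fitted, and it counts as a single observation. Jun, a subunit of the AP-1 transcription factor, had 2049, 1656 and 688 in GFP, 1685, 1362 and 566 in GFP-TTP and 1443, 1167 and 484 in GFP-TTP-AA. It too had replicate 3 values below all values of the other replicates, with differences of -1.58 and -1.27. Dusp1, which inactivates p38 and JNK, had 2510.5, 2375 and 1052 in GFP, 1897, 1794 and 794 in GFP-TTP and 1572, 1487 and 658 in GFP-TTP-AA, a difference of -1.26 and -1.18.

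The other lower genes of the feedback list included Btg2, an antiproliferative adaptor of mRNA deadenylation (-1.35 and -1.20), the pseudokinase Trib1 (-1.09 and -1.05) and Gadd45g (-0.82 and -1.20). Ier2 (-1.06 and -0.90), the kinase Sgk1 (-0.81 and -0.79) and the phosphatase Dusp2 (-0.65 and -0.80) completed them. Among the transcription factors, Fos, the partner of Jun in AP-1 (-1.03 and -0.75), and Klf10 (-0.88 and -0.86) joined Jun. Over all 82 lower genes replicate 2 lay above replicate 1 in 43, and among those named here replicate 2 minus replicate 1 was 0.38 for Gadd45g and -0.31 for Jun. By any amount, 3357 of all 10102 genes lay below both other replicates and 3808 above both. Of the 24 feedback genes 14 lay below both and 6 above, and of the 20 transcription factors 8 and 7. Among those short of 1.5-fold, Junb, the gene of the list with the most reads, was at 0.13 and 0.05, Klf6 at -0.28 and -0.33, Egr1 at -0.42 and -0.25 and Plk2 at -0.09 and -0.03. Fosl1 (0.71 and 0.29), Atf3 (0.54 and 0.10) and Myc (-0.47 and 0.14) differed more from replicate 1 than from replicate 2. Myc counts may include reads of the human transgene, which could not be told apart here. Dusp16, another MAP kinase phosphatase, went the other way at 0.97 and 0.70.

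The promoters of a pair of these phosphatases are printed because Dusp6 and Dusp1 carried the largest differences of the MAP kinase inhibitors. They are the RefSeq windows from 250 bases before to 50 after the gene start in GRCm38.p6, 5′ to 3′ on the gene's strand, Dusp6 at chr10:99262981-99263280 (plus strand) and Dusp1 at chr17:26508423-26508722 (minus strand). Capitals mark matches on either strand, in Dusp6 to the NF-kB letters GGAATTTCC, and in Dusp1 to the cyclic AMP response element TGACGTCA.
Dusp6: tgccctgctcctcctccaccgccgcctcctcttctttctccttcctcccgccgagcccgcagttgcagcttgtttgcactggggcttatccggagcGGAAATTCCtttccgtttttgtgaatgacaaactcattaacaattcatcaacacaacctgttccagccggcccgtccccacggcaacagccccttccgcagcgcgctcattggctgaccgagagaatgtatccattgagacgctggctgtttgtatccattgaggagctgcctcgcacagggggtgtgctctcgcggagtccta
Dusp1: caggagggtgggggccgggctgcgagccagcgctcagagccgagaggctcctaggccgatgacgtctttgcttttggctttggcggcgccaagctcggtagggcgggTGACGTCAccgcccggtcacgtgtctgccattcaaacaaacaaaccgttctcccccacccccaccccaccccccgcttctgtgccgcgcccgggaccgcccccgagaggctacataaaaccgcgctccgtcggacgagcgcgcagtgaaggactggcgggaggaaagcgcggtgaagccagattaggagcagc

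**Figure D2:**
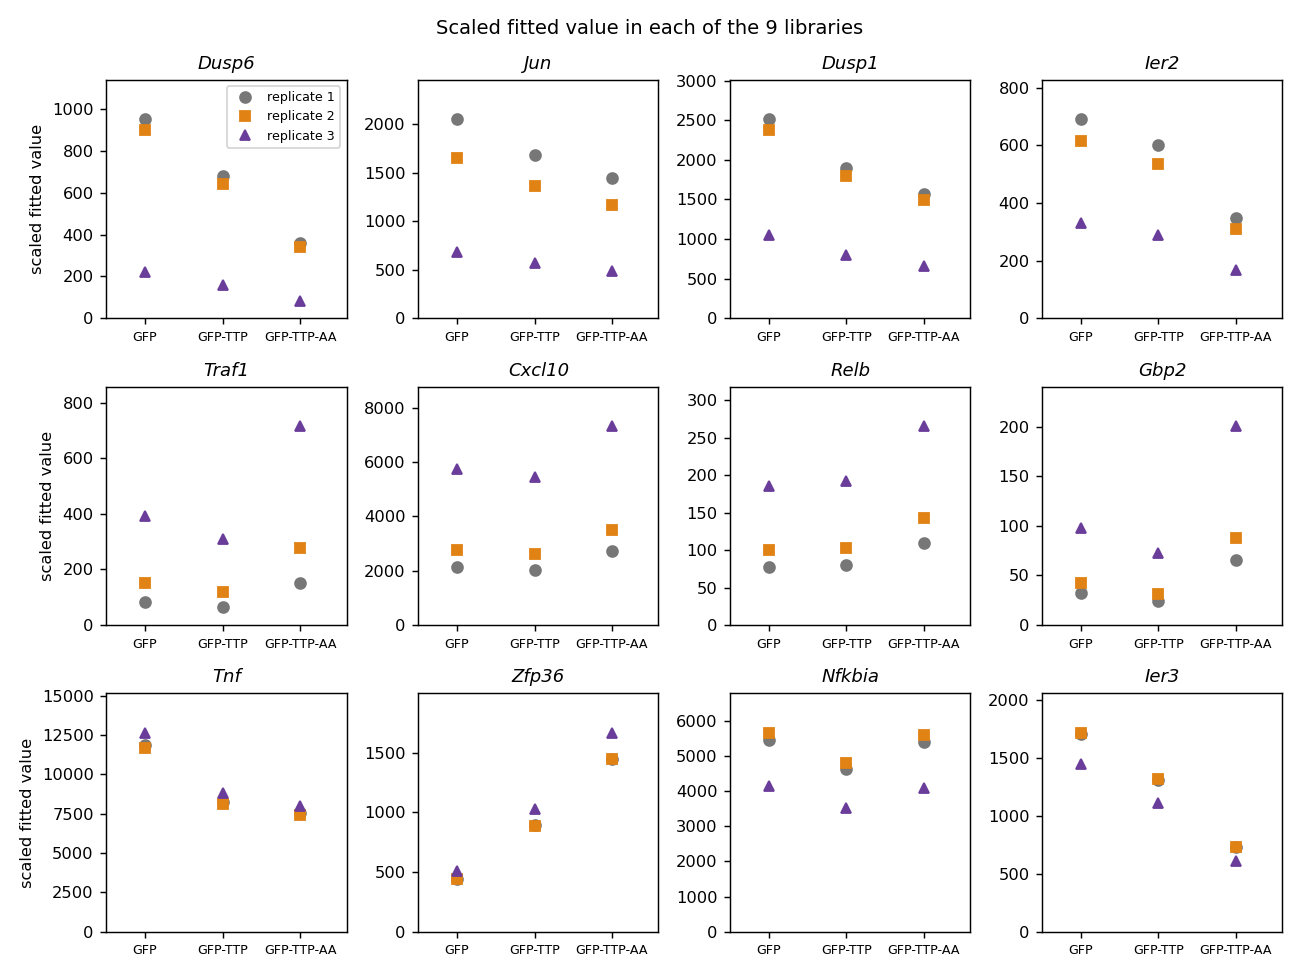
Each panel shows 1 gene with its scaled fitted value (y axis, from 0) in the 3 conditions (x axis) and the 3 replicates (circles, squares and triangles). The triangles of replicate 3 lie lowest for Dusp6, Jun, Dusp1 and Ier2, highest for Traf1, Cxcl10, Relb and Gbp2, and near the others for Tnf, Zfp36 and Ier3, with the same ratio in each condition because the values are fitted.

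NF-kB components were higher in replicate 3 on balance. Of 25 genes, all above the minimum, 5 (20%, against 1.39% of all genes) were higher than both other replicates. None was lower and the median was 0.39. In 19 of the 25 replicate 2 lay between replicates 1 and 3, and the median difference was 0.50 from replicate 1 and 0.34 from replicate 2. Traf1, an adaptor of TNF receptors, differed most, with 82.2, 151 and 390.5 in replicates 1, 2 and 3 of GFP, 65.3, 120.2 and 310.1 in GFP-TTP and 150.5, 277 and 715 in GFP-TTP-AA. Replicate 3 was the highest and replicate 1 the lowest, with differences of 2.25 and 1.37 that the fit makes the same in every condition. The subunits Relb (1.27 and 0.89) and Rel (1.13 and 0.80), the inhibitor Tnip1 (1.05 and 0.83) and the ubiquitin ligase Birc3 (1.19 and 0.71) were the other 4. Nfkb2 and Icam1 were well over replicate 1 (1.06 and 0.86) but less so over replicate 2 (0.49 and 0.19).

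The inhibitor genes Nfkbia, Tnfaip3 and Socs3, grouped here after their values were seen, did not share this direction, whereas the inhibitor Tnip1 did. By any amount, 19 of the 25 NF-kB components lay above both other replicates and 4 below both. Nfkbia, which encodes IkBalpha, was at -0.40 and -0.45, with 5449, 5647 and 4130.0 in the replicates of GFP, 4634, 4802 and 3512 in GFP-TTP and 5400.4, 5596 and 4093 in GFP-TTP-AA. Replicate 3 was thus the lowest, by the same fitted ratio in each condition, short of 1.5-fold. Tnfaip3, the ubiquitin-editing enzyme A20, was at -0.02 and -0.22, and Socs3, an inhibitor of cytokine receptor signals, at -0.29 and -0.26. The inhibitor genes Nfkbib (0.92 and 0.52) and Nfkbie (0.85 and 0.43) had positive values.

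Among LPS-induced cytokines and chemokines, 22 of 28 listed genes passed the minimum. The 4 (18.2%, against 1.39% of all genes) that were higher than both other replicates were Cxcl10, Ifnb1, Ccl4 and Ccl5. None was lower, and the median was 0.31. Cxcl10, a chemokine for T cells that interferons induce, had 2143, 2751 and 5735 in GFP, 2036, 2614 and 5449 in GFP-TTP and 2733, 3508 and 7314 in GFP-TTP-AA. All 3 values of replicate 3 exceeded all 6 of the others, and the fitted differences, the same in each condition, were 1.42 and 1.06. Ifnb1, interferon beta, had few reads, with a mean of 15.0, and differed by 1.39 and 1.11. The chemokine Ccl4 was at 0.67 and 0.92 and Ccl5 at 0.80 and 0.71, and Ccl3, just short of the boundary, at 0.97 and 0.58. Cxcl2 was at 0.44 and 0.20, Ccl2 at 0.25 and 0.67, and Il1b at 0.50 and 0.27. Tnf was nearly level at 0.09 and 0.11. Spp1, osteopontin, was at 0.12 and -0.56.

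Interferon-stimulated genes formed the list with the highest median, 0.54. Of 34 genes above the minimum, 15 (44.1%, against 1.39% of all genes) were higher than both other replicates and none was lower. Over all genes 3808 of 10102 lay above both by any amount, and in this list 28 did. The median of replicate 2 minus replicate 1 was -0.03, with members in both directions, such as Gbp2 at 0.42 and Ifih1 at -0.27. Gbp2, a guanylate-binding protein of antimicrobial defence, had 31.9, 42.5 and 97.5 in the replicates of GFP, 23.8, 31.8 and 72.8 in GFP-TTP and 65.6, 87.5 and 201 in GFP-TTP-AA. Replicate 3 was the highest within each condition, an order that the fit repeats, by 1.61 and 1.20. The value of replicate 3 in GFP-TTP nevertheless lay below that of replicate 2 in GFP-TTP-AA. Oasl1, which limits translation of Irf7, was at 1.37 and 1.33, Rtp4 at 1.20 and 0.95, Gbp3 at 1.02 and 1.09, and Rsad2, the antiviral enzyme viperin, at 1.05 and 0.99. The RNA sensors Ddx58 (0.88 and 0.93) and Ifih1 (0.68 and 0.94) and the effectors Ifit1, Ifit2, Isg15, Oas2, Oasl2, Cmpk2, Xaf1 and Ifi203 completed the higher genes. The 3 members with the most reads were closer to 0: Bst2, an inhibitor of virus release, at 0.11 and 0.15, Lgals3bp at 0.09 and -0.10, and Irf1 at 0.41 and 0.03. The signal transducer Stat2 (-0.13 and -0.18) did not share the shift. Genes of the Gbp, Oas and Ifit families are close paralogs, and reads kept at up to 2 places can be shared between them.

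The promoter windows of Cxcl10 (chr5:92348840-92349139, minus strand), Gbp3 (chr3:142559794-142560093, plus strand) and Nfkbia (chr12:55492598-55492897, minus strand) are printed in the same way, the first pair as genes that were higher in replicate 3 and the last as an NF-kB target that was not. Capitals mark GGACTTTCC or GGAATTTCC (NF-kB) in Cxcl10 and Nfkbia, TGACTCA (AP-1) in Cxcl10 and GAAACTGAA (a core of the interferon-stimulated response element) in Gbp3.
Cxcl10: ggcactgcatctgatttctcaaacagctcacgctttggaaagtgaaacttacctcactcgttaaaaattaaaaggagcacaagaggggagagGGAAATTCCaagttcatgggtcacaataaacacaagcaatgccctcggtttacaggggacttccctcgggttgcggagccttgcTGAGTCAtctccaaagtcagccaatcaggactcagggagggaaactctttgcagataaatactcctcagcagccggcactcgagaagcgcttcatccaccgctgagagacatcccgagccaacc
Gbp3: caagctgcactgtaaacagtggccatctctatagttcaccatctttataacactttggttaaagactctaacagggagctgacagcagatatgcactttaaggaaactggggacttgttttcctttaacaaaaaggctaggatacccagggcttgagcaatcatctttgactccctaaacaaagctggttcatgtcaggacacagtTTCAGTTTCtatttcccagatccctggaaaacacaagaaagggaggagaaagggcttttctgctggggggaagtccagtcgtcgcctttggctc
Nfkbia: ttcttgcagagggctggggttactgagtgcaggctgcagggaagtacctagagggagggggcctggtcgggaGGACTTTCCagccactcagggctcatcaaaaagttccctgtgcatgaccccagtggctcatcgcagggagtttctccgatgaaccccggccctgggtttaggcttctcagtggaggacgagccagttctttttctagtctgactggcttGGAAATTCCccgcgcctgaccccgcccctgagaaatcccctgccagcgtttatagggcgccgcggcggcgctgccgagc

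An NF-kB match thus stood in windows of genes of either direction, in Dusp6 and Nfkbia as in Cxcl10. Gbp3 was printed as an example with the core of the interferon-stimulated response element, which 2 of the 110 higher genes with a window held. The window of the higher gene Gbp2 held only an AP-1 match, and that of Stat2, which was not higher, held the core. Of the 10102 genes 8173 (80.9%) had a window by current or older symbol, and of these 0.979% held an NF-kB match, 4.27% AP-1, 3.87% the cyclic AMP response element and 0.538% the interferon element. Windows were found for 110 of the 140 higher genes (78.6%) and 62 of the 82 lower genes (75.6%). As fewer than 80% of each group had one, the comparison of motif shares is void, and a match is only a description of these letters.

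**Figure D3:**
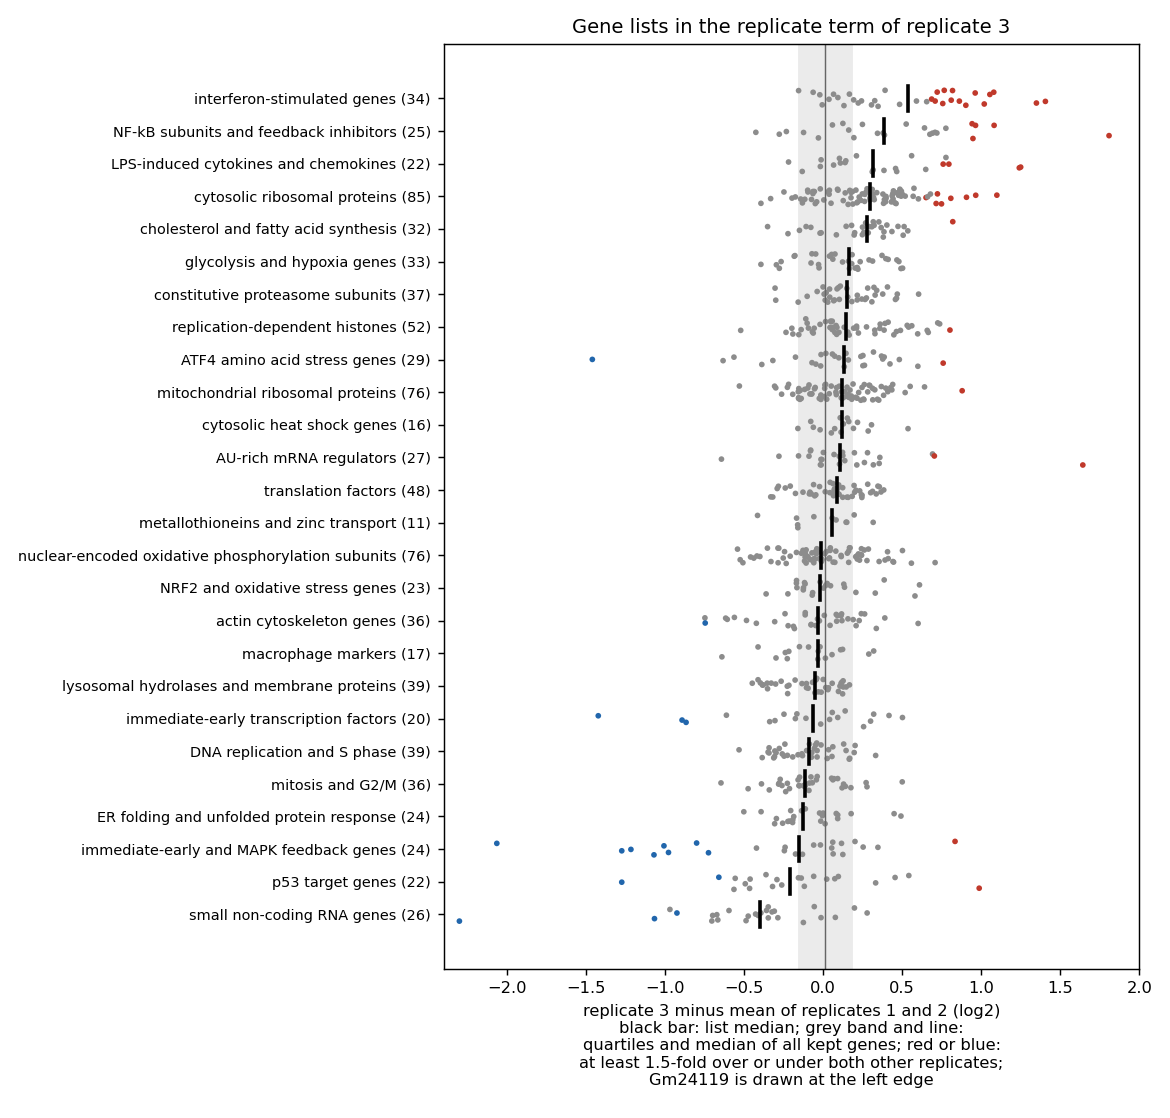
Each point is a gene of a list (rows, with the number of genes), placed by the log2 difference of replicate 3 from the mean of the other replicates (x axis), with the list median as a black bar and the quartiles of all genes as a grey band. Interferon-stimulated genes have the highest median at 0.54, and the immediate-early lists have medians of -0.06 and -0.15 with a tail of blue points down to Dusp6 at -2.06.

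Zfp36 itself was at 0.20 and 0.20, and its values followed the vector, with 442, 440.1 and 507 in the replicates of GFP, 892, 888 and 1024 in GFP-TTP and 1449.8, 1443 and 1663 in GFP-TTP-AA. In GFP-only macrophages footprints at Zfp36 were thus counted as well, although the cells lack TTP. Ier3, an early survival gene, was at -0.24 and -0.25, and the reference genes Actb and Gapdh were at -0.13 and 0.36 and at 0.19 and -0.04, with opposite signs in the 2 comparisons. Of 27 other regulators of AU-rich mRNAs, 2 (7.41%, against 1.39% of all genes) were higher and none was lower, with a median of 0.10. They were Zc3h12c, a relative of the mRNA-cleaving enzyme regnase-1, at 1.91 and 1.37, and Cnot7, a deadenylase subunit, at 0.77 and 0.64. Regnase-1 itself, Zc3h12a, was at 0.85 and 0.53, and Pcbp2 and Pcbp1 were at 0.04 and -0.20 and at 0.07 and -0.10.

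Cytosolic ribosomal proteins had a positive median, 0.30. Of 85 genes 8 (9.41%, against 1.39% of all genes) were higher than both other replicates and none was lower. By any amount 57 lay over both, against 3808 of all 10102 genes. Rps26 (1.22 and 0.98), Rpl18 (1.31 and 0.62) and Rps27a (0.92 and 0.89) differed most, and those with the most reads, Rpl8 (0.11 and 0.26), Rpl4 (0.20 and 0.56) and Rps9 (0.42 and 0.18), less. Ribosomal protein genes have many processed pseudogenes with which reads can be shared. Such sharing was not tested. The pseudogene Gm12901, whose parent gene was not identified here, was among the 12 most positive genes at 1.19 and 1.39. Of 48 translation factors none was called, with a median of 0.09. Of 76 mitochondrial ribosomal proteins 1 was higher (1.32%, near the 1.39% of all genes), Mrps15, with a median of 0.12.

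Genes of cholesterol and fatty acid synthesis had a median of 0.28, with 1 of 32 called (3.12%, against 1.39% higher over all genes). This was Fdps, which makes farnesyl diphosphate, at 0.65 and 0.99. Hmgcs1 (0.53 and 0.54) and Fdft1 (0.64 and 0.39) of the sterol branch were next. The fatty acid genes with the most reads were negative, Fasn at -0.39 and -0.05, Acly at -0.27 and -0.03 and Scd2 at -0.40 and -0.31. The medians of glycolysis and hypoxia genes (0.16), constitutive proteasome subunits (0.15), heat shock genes (0.12) and metallothioneins with zinc transporters (0.06) lay within the quartiles of all genes, with no gene called. Replication-dependent histones (0.14) had 1 higher gene of 52 (1.92%), Hist1h2bf, a share near that of all genes. Of 29 genes of the ATF4 stress response, 1 (3.45%, against 1.39% of all genes) was higher, Chac1, which had a mean of only 15.1. Another (3.45%, against 0.812%) was lower, the mTORC1 inhibitor Ddit4, at -1.49 and -1.43.

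Targets of p53 had a median of -0.21, with a wide gap between the comparisons, -0.06 from replicate 1 and -0.39 from replicate 2. Their called genes went both ways. Btg2 and Sesn1 were lower, 9.09% of the list against 0.812% of all genes. The death receptor Fas was higher (1.18 and 0.79), 4.55% against 1.39%. Mdm2 and Cdkn1a, with the most reads, were at 0.32 and -0.13 and at -0.06 and -0.47. Genes of endoplasmic reticulum folding (-0.12), mitosis (-0.11, which was -0.22 from replicate 1 and -0.04 from replicate 2), DNA replication (-0.09, which was -0.19 and -0.00), the lysosome (-0.05), the NRF2 response (-0.02) and oxidative phosphorylation (-0.01) had no called gene. In the actin cytoskeleton (-0.03) 1 of 36 genes (2.78%, against 0.812% of all genes) was lower, the filament crosslinker Flna at -0.85 and -0.64.

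Small non-coding RNA genes were chosen by the form of their symbols, a rule that also took in the lincRNA Gm26917. This list had the lowest median, -0.40 (-0.0074 without the minimum level), and the difference lay mainly against replicate 2. Their median was -0.02 from replicate 1 and -0.73 from replicate 2, and replicate 2 was 0.69 over replicate 1. The snoRNA Gm24119 had mean levels of 409, 4525 and 144 in replicates 1, 2 and 3, and Rpph1, the RNA of RNase P, had 14164, 81102 and 33581. Only 26 of 318 such genes in the table passed the minimum. Of these 3 (11.5%, against 0.812% of all genes) were lower than both other replicates and none was higher. Mitochondrially encoded genes were not analysed here.

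Macrophage markers lay near the median of all genes. Of 17 macrophage markers above the minimum none was called, with a median of -0.03, and their summed scaled level was 106190 to 141181 in the libraries of replicate 3 and 115781 to 161018 in the others. Itgam, the CD11b chain used to select the cells, was at -0.77 and -0.51, F4/80 (listed as Emr1) at -0.71 and -0.15, Lyz2 at -0.33 and -0.15 and Cd14 at 0.10 and -0.16. Markers of other cells were sparse. Of the 12 markers listed for each type, none of the lymphocyte list passed the minimum, nor did more than 1 for dendritic cells (Cd74), fibroblasts (Acta2) and erythroid cells (Pf4), or 2 for neutrophils (S100a8 and Cebpe). All 5 of these genes were lower in replicate 3 than in either other replicate, none by 1.5-fold over both. The summed neutrophil markers were 37.4 to 68.0 in replicate 3 and 42.4 to 108 in the others. Defining markers such as Cd3e, Elane and Ly6g were not analysed here.

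Genes outside the lists made up most of the called ones. By the rule for the 12 most positive genes, Rapgef2, an activator of Rap1, was at 1.42 and 1.49, Ppap2b, a lipid phosphatase, at 1.92 and 1.17, Icosl, a T cell costimulator, at 1.69 and 1.05, Acsl1, a fatty acyl-CoA synthetase, at 1.27 and 1.15, Ifrd1 at 1.08 and 1.17 and Dcbld2 at 1.12 and 1.11. Other higher genes, named after their values were seen and without a count over any list, were Peli1 (1.03 and 1.12), Ripk2 (1.19 and 1.01), Irak2 (1.20 and 0.76), Tank (1.12 and 1.00), Tlr2 (0.84 and 0.66), Tnfrsf1b (0.78 and 0.79) and Mapkapk2, the kinase that phosphorylates TTP (0.99 and 0.97). They were picked by hand and do not describe the genes outside the lists as a set. The receptor Clec4e had mean levels of 2078, 2365 and 4381 in replicates 1, 2 and 3.

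On the lower side the rule named Sema4c (-1.24 and -1.14), Acad10 (-1.09 and -1.06), Ahnak2 (-0.89 and -1.40) and the dynein heavy chain Dync1h1 (-0.89 and -0.99). Further lower genes, also named after their values were seen, were the receptors Notch1 (-1.10 and -0.77) and Siglec1 (-1.02 and -0.82) and the very long cytoskeletal linkers Plec (-0.68 and -1.31) and Macf1 (-0.82 and -0.74). The kinase Map3k1 (-1.09 and -0.69) was lower as well. Siglec1 was in none of the interferon, NF-kB and cytokine lists, so the absence of lower genes from them depends on their membership. Dync1h1, Plec and Macf1 have coding lengths of 13932, 14073 and 22065 bases. The median over the 82 lower genes was 1569 bases, against 1386 over all genes. Of the 1242 genes with the longest coding sequence 19 were lower and 9 higher, and of the 1252 shortest 12 were lower and 20 higher. Over all genes 0.812% were lower and 1.39% higher, and the shortest genes were near these shares.

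The difference of replicate 3 moved with GC content and coding length. Across 9970 genes, which are not independent of one another, it had a Spearman rho of -0.22 (Pearson r of -0.20) with the GC content of the transcript and -0.15 (r of -0.15) with the coding length. In 8 bins of equal size the median went from 0.12 at 32.8% to 42.9% GC to -0.05 at 57.4% to 76.3%, and from 0.05 in the shortest to -0.07 in the longest genes. Replicate 2 minus replicate 1 had a rho of 0.05 with GC content and -0.14 with coding length. Of the 1247 genes of highest GC content 14 were higher and 23 lower, and of the 1247 of lowest GC content 25 were higher and 2 lower. The shares over all genes were 1.39% higher and 0.812% lower. When the median of each GC bin was subtracted, 126 genes were higher and 73 lower, and the list medians were 0.48 for interferon-stimulated genes, 0.42 for NF-kB components, 0.22 for cytokines, -0.14 for immediate-early feedback genes and -0.04 for immediate-early transcription factors. Chromosome medians ran from -0.02 to 0.06.

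**Figure D4:**
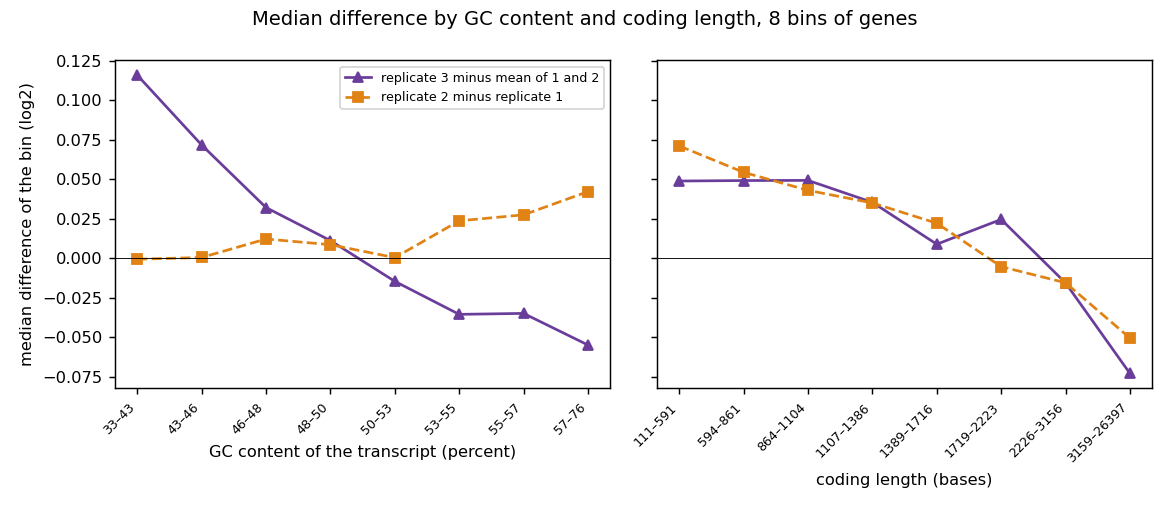
Medians over 8 bins of genes by GC content of the transcript (left) and by coding length (right) are shown for the log2 difference of replicate 3 from the mean of the others (triangles) and of replicate 2 from replicate 1 (squares). With rising GC content the triangles go down from 0.12 to -0.05 while the squares stay between 0.00 and 0.04, and with coding length both go down.

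Set against the conditions of the study, the fitted replicate term was of like size. Both terms were shrunken by the authors' model, each to its own degree, so their sizes only describe these fits. The range over the 3 replicates was larger than the range over the 3 conditions in 5387 of the 10102 genes (53.3%), with medians of 0.29 and 0.27. Among the 222 genes called in either direction the replicate range was the larger in 204, a count the choice of these genes favours. NF-kB components had the larger replicate range in 17 of 25 genes, cytokines in 14 of 22, immediate-early transcription factors in 11 of 20, feedback genes in 11 of 24 and interferon-stimulated genes in 11 of 34. Jun ranged over 1.58 between replicates and 0.51 between conditions, and Cxcl10 over 1.42 and 0.42. The reverse held for Ier3, with 0.25 and 1.23, Zfp36, with 0.20 and 1.71, Tnf, with 0.11 and 0.66, and Oasl1, with 1.37 and 2.50. Because the condition term is fitted beside the replicate term, these condition ranges hold equally within each replicate.

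**Figure D5:**
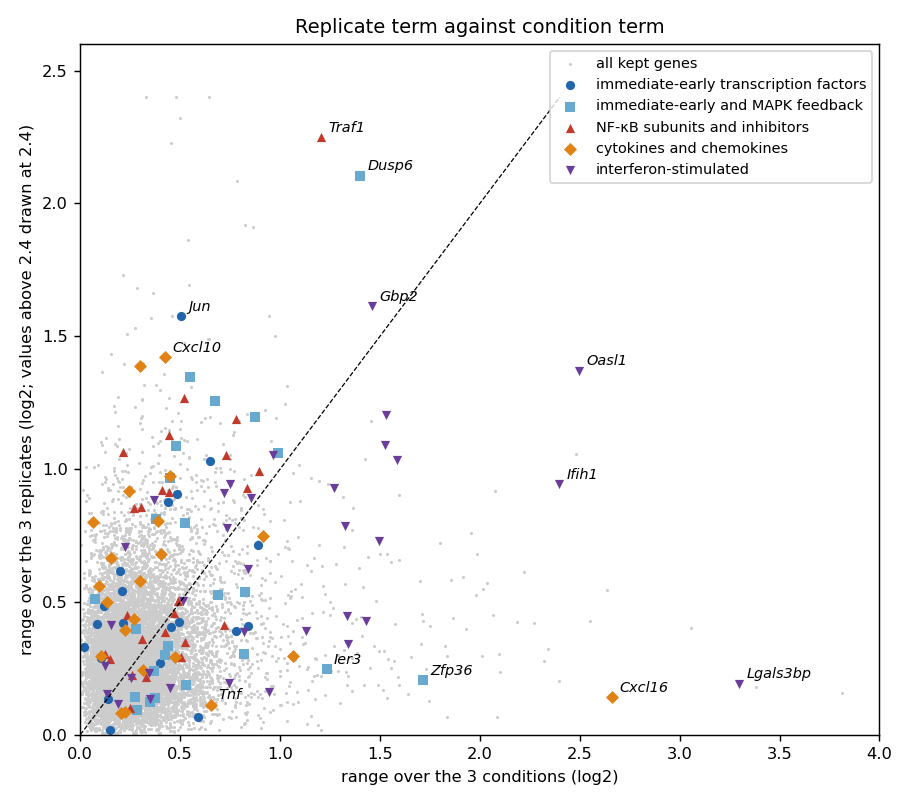
Each point is a gene, placed by its log2 range over the 3 conditions (x axis) and over the 3 replicates (y axis), with equality as a dashed line and 5 gene lists in colour. Traf1, Dusp6, Jun and Cxcl10 lie above the line, and Zfp36, Ier3, Oasl1, Ifih1 and Lgals3bp lie below it.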

How the data were processed

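RiboSeq of 9 libraries of TTP-deficient immortalized BMDMs was analysed, 3 for each of the 3 vectors, with groups and replicate numbers from the sample labels. The authors prepared the libraries with the ARTseq kit, aligned reads to mm10 (TopHat, keeping a read at no more than 2 places), counted them per gene and fitted DESeq2 with library date and condition; the submitters' processing notes name Trim Galore, TopHat2 2.0.12, HTSeq and DESeq2 1.6.3. The authors' deposited table, named as normalized counts, holds a signal, the model's fitted mean per gene and library times the size factor, for 16921 genes (16932 lines, 11 repeated). This was checked on the values: after condition and replicate terms a residual of at most 1.24e-14 (log2) was left. The replicate number stands in for the library date, which is not given in the sources used here. The deposited tables of the authors' own comparisons hold means, fold changes, standard errors and p-values and were not used.

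Size factors were recovered from the 20 genes of lowest mean, whose terms are shrunken to 0, and lay between 0.419 and 2.18. Replicate differences are means over the conditions of log2 scaled values, without a pseudocount. Genes with a mean of at least 10 were kept. As fitted values leave no replicate spread, no test was run. The recovery of known differences was tested on simulated data. Named genes are the 12 of mean at least 50 that differ most from both other replicates in each direction, up to 3 members of each list with the most reads and up to 3 with the largest difference, and 12 fixed genes (Zfp36, Tnf, Ier3, Dusp1, Tnfaip3, Nfkbia, Cxcl2, Ccl3, Fos, Egr1, Actb and Gapdh). The comparison, the 26 pathway lists and the 6 marker lists were chosen with earlier results of these data known. Transcript GC content, coding length and positions are from GENCODE and promoters from RefSeq, both GRCm38. Alternatives were 2 other scalings, no minimum or a minimum of 50, a pseudocount of 10, boundaries of 0.32 (log2) and of 2-fold, each other replicate alone, and subtraction of GC and length bin medians, which was added after the data were seen. Python 3.11.15, pandas 2.3.3, numpy 2.4.6 and scipy 1.17.1 were used.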

Additional observations from a re-analysis of the deposited data

How the results depend on the processing

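The list medians of NF-kB components, cytokines, interferon-stimulated genes and immediate-early feedback genes kept their sign under every alternative, and that of immediate-early transcription factors did so except for replicate 1 alone (0.046). No paired analysis was possible because the replicate number is itself what was compared and the fitted values hold no residual. Against a single other replicate, 301 to 321 genes were higher and 176 to 349 lower, the SD over genes was 0.29 to 0.32, and list medians were -0.058 to 0.046 for immediate-early transcription factors, -0.16 to -0.12 for feedback genes, 0.46 to 0.55 for interferon-stimulated genes, -0.030 to 0.015 for oxidative phosphorylation and -0.063 to 0.027 for the NRF2 response. Gapdh ran from -0.037 to 0.19 and Actb from -0.13 to 0.36. With a boundary of 0.32 (log2) 653 genes were higher and 502 lower, with 2-fold 19 and 9, and against the mean of both other replicates 232 and 166. Without a minimum level the SD was 0.22, the cytokine median 0.14 and the interferon median 0.39. With a minimum of 50 the medians were -0.21 for feedback genes, 0.38 for cytokines and 0.64 for interferon-stimulated genes. With a pseudocount of 10 the SD was 0.25 and the interferon median 0.41. Subtracting GC bins gave a cytokine median of 0.22 and subtracting length bins a feedback median of -0.19. The other scalings moved the median of all genes to 0.013 and -0.005. The cause of these shifts was not tested. Without replicate 3 there is no value. Replicate 2 had the lowest summed fitted values, and the SD over genes was 0.32 for replicate 3 minus replicate 2 and 0.29 for replicate 3 minus replicate 1. How depth bears on these differences was not tested.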
